A study of Mus musculus with 11 samples.

Results

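Plasma cells of the mouse colon were described from single-cell 3' RNA sequencing of colonic mucosa. They were the cells that the authors' deposited cell table names Plasma at its finer level of annotation, 1468 of 55603 cells in 11 libraries. The Il10-/- library came from mice of about 10 months that lack the anti-inflammatory cytokine interleukin 10 and had colitis by raised fecal lipocalin. Wild-type mice of about 2 months were given 3% dextran sulfate sodium (DSS), a polysaccharide that injures the colonic epithelium, for 6 days. The time points, counted from the first exposure, were day 6, then days 7, 9 and 11, then days 12 and 16, and last days 18, 19 and 23, with 1 library each. The last library came from uninjured wild-type mice of the same age. Each library pooled the mucosa of 3 to 8 mice after the muscle was stripped off, and dead cells had been removed with annexin V antibodies, so a library stands for its group alone and cells are not replicates.

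Plasma cells are the end stage of the B lineage and are built to secrete antibody. In the gut most of them make IgA, joined by the J chain and carried across the epithelium by its polymeric immunoglobulin receptor, while IgG plasma cells are a minority known to increase in human ulcerative colitis. A cell uses 1 heavy chain class and either a kappa or a lambda light chain, so its constant gene transcripts show the antibody it makes.

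The libraries differed in ways that touch what follows. Days 7, 11 and 18 carry the batch label C and were loaded fresh, and the cell table gives the other 8 libraries as frozen. Plasma cells numbered 37 in the uninjured library, 35, 5, 24, 8, 65, 250, 244, 365 and 203 from day 6 to day 23, and 232 in the Il10-/- library. The libraries of days 7 and 11 therefore hold 5 and 8 cells and enter gene tests only where stated. Summed UMIs, each standing for 1 captured RNA molecule, went from 186456 on day 6 to 5933421 on day 18, and the median per plasma cell from 4363 on day 6 to 42839 on day 11. Of cell barcodes, 611 occurred in more than 1 library, and 45 plasma cells carried such a barcode.

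The cell table split the plasma cells into a larger cluster of 1079 cells and a smaller of 389. Cells of the smaller cluster had a median of 1114 UMIs, 23.0% of them mitochondrial and 14.5% from the nuclear RNA Malat1, against 16045 UMIs, 2.33% and 1.86% in the larger cluster. The summed level of 8 neutrophil markers was 14149 in the smaller and 2045 in the larger cluster, in CPM, the share of UMIs scaled in the usual way, taken here over the UMIs outside immunoglobulin genes and Jchain. CPM below are on that scale unless all UMIs are named. The smaller cluster held 45.7% of plasma cells on day 6, 37.3% on day 19, 36.6% in Il10-/- and 37.8% in the uninjured library, but 0 of the cells of days 7, 9 and 11. Results were therefore repeated on the larger cluster alone, an alternative chosen after the data were seen.

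The label held against its markers. Jchain, which links antibody units, was seen in 98.2% of plasma cells at 63522 CPM of all UMIs, against 171 in all other cells. Igha, the IgA heavy chain gene on chromosome 12 (113254830 to 113260236, minus strand, mm10), stood at 129382 CPM of all UMIs in plasma cells and 549.8 in the others. Xbp1, the transcription factor of the secretory programme, was found in 89.1% of plasma cells at 1327 CPM of all UMIs, against 35.4% of the other cells at 142. Some genes that B cells lose on this path were low. Ms4a1, which encodes CD20, had 10.6 CPM in plasma cells and 768 in the 5185 B cells, and the B cell factor Pax5 had 1.46 CPM in plasma cells and 192 in B cells. Other members of the list of 18 B cell genes were not low. Cd79a had 790 CPM in plasma cells, 2505 in B cells and 85.4 in all other cells. Cd79b had 330, 799 and 28.5 CPM, and Ly6d 978, 1626 and 77.8. The whole list summed to 2310, 11509 and 595 CPM.

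Among genes seen in at least 20% of plasma cells, antibody genes and Jchain left out, the highest ratio over all other cells was that of Ccr10, the receptor for the colonic chemokine CCL28. It had 668 CPM in plasma cells, 1.39 in B cells and 0.769 in all other cells. Tnfrsf17, which encodes the survival receptor BCMA, followed with 459.5 CPM in plasma cells and 0.576 in the other cells. The next ones included Prg2, named for an eosinophil granule protein, at 211 CPM, Derl3, of the export of misfolded proteins from the endoplasmic reticulum, at 449, and Eaf2 at 508. Mzb1, a chaperone of antibody assembly, reached 5737 CPM in plasma cells and 17.9 in the others. Tg and Cacna1s, named for thyroid and skeletal muscle products, were also among the 15 leading genes at 92.5 and 345 CPM, and Oosp1, named for an oocyte secreted protein, at 58.5. These genes define the cells as clustered and were not tested.

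The share of plasma cells in the B lineage, that is among plasma and B cells together, was lowest in the middle of the course. The uninjured library had 41.1%, and days 6, 7, 9, 11 and 12 had 36.5%, 2.96%, 8.14%, 1.10% and 16.7%. Days 16, 18, 19 and 23 followed with 30.8%, 34.0%, 34.7% and 26.0%, and Il10-/- had 15.2%. Days 7 to 12 thus lay below day 6 and below every later day, and the Clopper-Pearson 95% interval of day 12, 13.1% to 20.8%, did not reach the lowest bound of days 16 to 23, 23.0%. Such intervals cover counting error only, and a low share of plasma cells cannot be told apart from a high yield of B cells. With day itself the share had r = 0.482 and rho = 0.250 over the 9 DSS libraries (exact two-sided permutation p = 0.184 and 0.521, adjusted over 6 relations 0.276 and 0.781). Within the 6 libraries with no batch label r was 0.221, without the 2 days farthest from the median day it was 0.398, and without day 6 it was 0.837 (exact permutation p = 0.0166).

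Antibody transcripts made up most plasma cell UMIs in 8 of the 11 libraries. Heavy chain, light chain and Jchain genes together took 61.0% of plasma cell UMIs in the uninjured library and 53.7%, 64.0%, 44.0%, 21.3% and 43.9% on days 6, 7, 9, 11 and 12. Their share was 56.7%, 61.3%, 56.5% and 64.6% on days 16, 18, 19 and 23 and 61.5% in the Il10-/- library. Days 9, 11 and 12 were the 3 lowest, and day 11 rests on 8 cells. Over the 7 DSS libraries with at least 10 plasma cells the share had r = 0.745 and rho = 0.750 with day (exact two-sided permutation p = 0.0601 and 0.0663, adjusted 0.275 and 0.346), which did not pass. It had r = 0.728 within the 6 libraries with no batch label, 0.914 without days 6 and 23, and 0.940 without day 6 (exact permutation p = 0.0111). Igkc, the kappa constant gene, was the largest part, from 14.6% of plasma cell UMIs on day 11 to 44.8% on day 7. Igha gave 4.40% on day 11 to 17.2% on day 6. The number of Igha counts per Jchain count lay between 1.56 on day 7 and 2.56 on day 12.

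**Figure D1:**
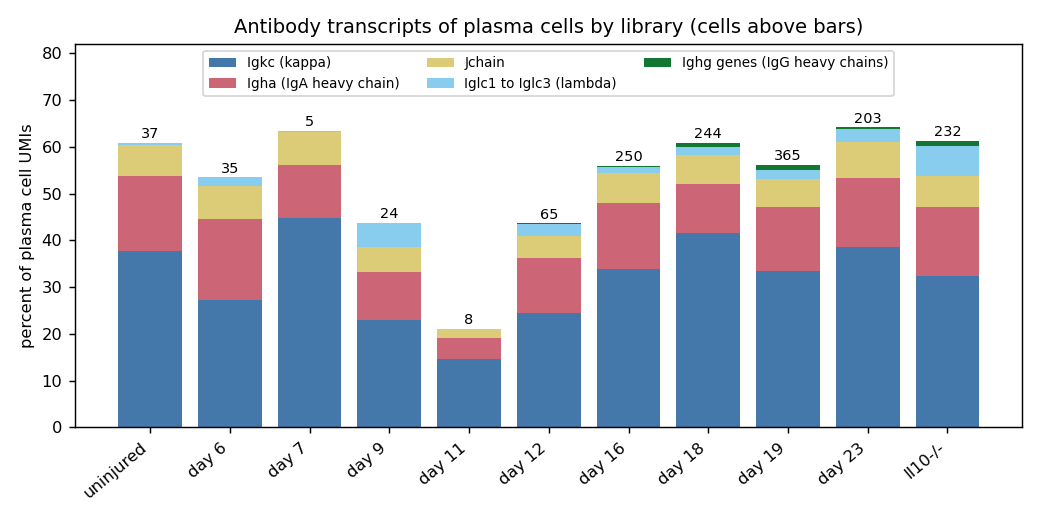
Share of plasma cell UMIs (percent, y axis) taken by antibody genes in each library (x axis), stacked by gene, with the number of plasma cells above each bar. Day 11 has the lowest bar, 21.3% in all with variable gene transcripts, from 8 cells, and Igkc is the widest band in every library.

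Nearly all plasma cells made IgA. A class was given where a cell had at least 10 heavy chain constant UMIs and 1 class held at least 80% of them. Of the 1468 cells, 1281 were IgA, 61 IgG, 2 IgM, 2 IgD and 0 IgE, while 18 were mixed and 104 had too few UMIs. Of the 104, 100 lay in the smaller cluster. IgA was 95.2% and IgG 4.53% of the 1346 cells with a class. The classes were sharp. In 1166 cells at least 99% of heavy chain UMIs were of 1 class, only 13 cells lay between 80% and 90%, and the median share of the own class was 98.7% in IgG and 99.9% in IgA cells.

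Antibody transcripts were also counted in cells of other types. Whether they were free RNA or came from doublets was not tested. Igha stood at 6.45 (day 7) to 2970 (day 19) CPM of all UMIs in T cells, and by the same rule 4.55% of 4550 T cells would be called IgA. IgG was called in 0 of these T cells, and 3 counts of their number would be 0.0659%. The rule would also call IgA in 11.3% of 8307 macrophages, 5.50% of 7731 fibroblasts, 2.20% of 5185 B cells and 0.955% of 12565 neutrophils. It called IgG in 0.0120% of the macrophages and in 8 of the B cells. B cells also held Ighm at 1586 and Ighd at 631 CPM of all UMIs, and whether their calls rest on their own transcripts was not tested. Plasma cells had a median of 12929.5 UMIs and T cells of 2443. IgG made up 0% to 5.48% of the Igha and IgG counts of T cells, highest on day 19.

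IgG plasma cells appeared in the libraries of day 12 and later and in Il10-/-. There were 0 of 34 in the uninjured library, with a Clopper-Pearson upper 95% bound of 10.3%, 0 of 24 on day 6 (upper bound 14.2%), 0 of 5 on day 7 (52.2%), 0 of 23 on day 9 (14.8%) and 0 of 8 on day 11 (36.9%). Then came 2 of 61 on day 12 (3.28%, Clopper-Pearson 95% interval 0.400% to 11.3%), 7 of 237 on day 16 (2.95%) and 12 of 243 on day 18 (4.94%). Day 19 had the highest share with 26 of 316 (8.23%, 5.45% to 11.8%), day 23 had 5 of 188 (2.66%), and Il10-/- had 9 of 207 (4.35%, 2.01% to 8.09%). Pooled, the libraries of days 12 to 23 held 52 of 1045 (4.98%, 3.74% to 6.47%) and those of days 6 to 11 held 0 of 60 (upper bound 5.96%), so the number of early cells does not separate the 2 shares.

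A relation of the IgG share with day did not pass. Over the 7 DSS libraries with at least 20 classed cells r was 0.665 and rho 0.595 (exact two-sided permutation p = 0.0964 and 0.173, adjusted 0.275 and 0.346). It was 0.642 within the libraries with no batch label, 0.882 without days 6 and 23, and 0.900 without day 23 alone (exact permutation p = 0.0139). The IgA share mirrored it, with r = -0.616 and rho = -0.595 (exact permutation p = 0.138 and 0.173, adjusted 0.275 and 0.346). It was 91.8% on day 19 and 95.1% to 100% in the other libraries.

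Among the 61 IgG cells the leading subclass gene was Ighg2b in 36, Ighg2c in 14, Ighg1 in 10 and Ighg3 in 1. The Ighg1 cells were spread over all 5 late DSS libraries, 1, 3, 1, 3 and 2 from day 12 to day 23, while the 9 IgG cells of Il10-/- were 5 of Ighg2b, 4 of Ighg2c and 0 of Ighg1. Both IgM cells came from day 16. The 2 IgD cells came from day 12 and from Il10-/-.

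**Figure D2:**
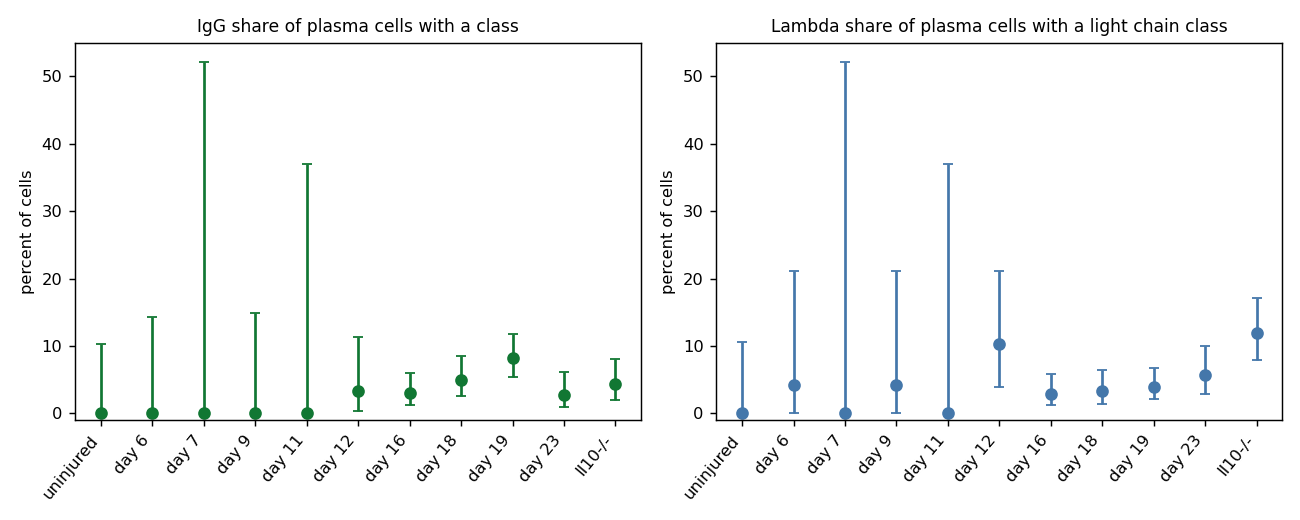
Left, IgG cells as percent of plasma cells with a heavy chain class. Right, lambda cells as percent of plasma cells with a light chain class, both by library (x axis) with exact 95% binomial intervals. IgG is at 0 up to day 11 with wide intervals and highest on day 19 (8.23%), and lambda is highest in Il10-/- (12.0%).

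Kappa was the common light chain. With the same rule for light chains, 1304 cells were kappa, 73 lambda (5.30% of those classed), 45 mixed and 46 too low. In Il10-/- 26 of 217 cells were lambda (12.0%, 7.98% to 17.1%). The DSS libraries had 1 of 24 on day 6, 0 of 5 on day 7, 1 of 24 on day 9, 0 of 8 on day 11 and 6 of 58 on day 12 (10.3%, 3.89% to 21.2%). Days 16, 18, 19 and 23 had 2.88%, 3.31%, 3.95% and 5.67%, and the uninjured library 0 of 33 (upper bound 10.6%). The interval of Il10-/- lay above those of days 16, 18 and 19 and overlapped the others. Iglc1, one of the lambda constant genes, took 5.39% of plasma cell UMIs in Il10-/-, against 0.0167% (day 7) to 4.97% (day 9) in DSS libraries and 0.0791% in the uninjured one. The value of day 9 came with a single lambda cell, so in small libraries 1 cell sets this number. Lambda share and day had r = -0.106 and rho = -0.126 (exact permutation p = 0.842 and 0.798, adjusted 1 and 0.957). Of the IgG cells 59 were kappa and 2 lambda, and of the IgA cells 1182 and 71.

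The day 18 library also held transcripts of variable genes, which lie at the 5' side of the message and are mostly missed by a 3' method. A cell was given a V gene where at least 10 UMIs fell on V genes and 1 gene held at least 80% of them. Of its 244 plasma cells, 132 had a heavy chain V gene, over 39 genes, and 174 a kappa V gene, over 36 genes. The other libraries gave 0 to 6 cells with a heavy chain call and 2 to 25 with a kappa call. Batch C libraries stood out by UMIs too, with medians of 25 and 11 heavy V UMIs per cell on days 7 and 11 and 12 on day 18, against 0 or 1 elsewhere. Ighv3-6 was the most used heavy V gene on day 18, in 14 of 132 cells (10.6%, 5.92% to 17.2%), and Igkv3-2 the most used kappa gene, in 34 of 174 (19.5%, 13.9% to 26.2%).

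Some pairs of V genes were seen in several cells on day 18. In 111 cells both chains had a call, in 61 distinct pairs, of which 22 occurred more than once and held 72 of the cells. Ighv3-6 with Igkv8-30 was found in 8 cells, all IgA, and Ighv5-17 with Igkv14-111 in 6, all IgA. Ighv10-3 with Igkv8-30 and Ighv1-4 with Igkv16-104 followed with 5 each, again all IgA, and Ighv4-1 with Igkv3-2 had 4 IgA cells and 1 IgG cell. The genes also occurred in other pairs, such as Ighv3-6 with Igkv3-2 in 4 cells, and whether pairs recur more often than the use of their genes gives was not tested. The junction between V and J segments was not covered, so cells with the same pair are not shown to be 1 clone, and the pool of mice is not resolved. The germline 3' ends of the V exons of 3 leading IgA pairs, of which a pair share their light chain gene, are printed because the cells' calls rest on telling them apart. They come from the GENCODE vM21 transcripts on GRCm38, 5' to 3', 120 bases each, with capitals on the codon of the conserved cysteine before the junction. Positions are chr12:114288152-114288271 (minus) for Ighv3-6, chr12:113859149-113859268 (minus) for Ighv5-17, chr12:114523441-114523560 (minus) for Ighv10-3, chr6:70117061-70117180 (minus) for Igkv8-30 and chr6:68256750-68256869 (plus) for Igkv14-111.
Ighv3-6: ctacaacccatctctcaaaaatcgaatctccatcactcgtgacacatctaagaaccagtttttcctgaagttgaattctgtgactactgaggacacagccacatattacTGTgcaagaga
Ighv5-17: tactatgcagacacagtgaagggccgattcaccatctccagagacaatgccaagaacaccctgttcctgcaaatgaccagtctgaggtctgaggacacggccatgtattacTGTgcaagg
Ighv10-3: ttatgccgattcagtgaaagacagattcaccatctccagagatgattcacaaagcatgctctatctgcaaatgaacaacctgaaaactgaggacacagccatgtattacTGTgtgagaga
Igkv8-30: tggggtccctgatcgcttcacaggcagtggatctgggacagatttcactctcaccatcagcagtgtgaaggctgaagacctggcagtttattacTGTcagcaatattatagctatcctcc
Igkv14-111: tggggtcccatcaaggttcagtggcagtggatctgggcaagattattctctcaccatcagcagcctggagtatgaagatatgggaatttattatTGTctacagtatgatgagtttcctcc
In the 109 bases before the cysteine codon, Ighv3-6 and Ighv10-3 were identical at 64 positions (58.7%) and Ighv5-17 and Ighv10-3 at 83 (76.1%). The 2 kappa ends shared 71 of 94 bases (75.5%). Igkv8-30 was thus paired with heavy V genes as unlike as Ighv3-6 and Ighv10-3.

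Gene levels over the DSS course were tested on counts summed per library over plasma cells, with day in units of 10 days and the batch label as terms (edgeR, quasi-likelihood test, 7 libraries with at least 10 plasma cells). Of 9474 genes, 78 rose (0.823%) and 61 fell (0.644%), 1.47% in all, at an adjusted p under 0.05, and 1020 had an unadjusted p under 0.05. Day 18 is the only batch C library among the 7, so its own term takes it out and the slope rests on the other 6. Within those 6 libraries alone, 27 of 6918 genes rose (0.39%) and 20 fell (0.289%), 0.679% in all, and all 47 were among the 139. In the larger cluster alone 80 of 9288 genes rose (0.861%) and 50 fell (0.538%), 1.4% in all, 116 of them among the 139. Many calls were of genes higher in the other cells, as were many of the genes tested. Outside immunoglobulin genes, 4821 tested genes had higher levels in the other cells than in plasma cells, 39 of them risers and 49 fallers. A further 4538 were at least as high in plasma cells, 27 of them risers (0.595%) and 10 fallers (0.220%).

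Transcripts of neighbouring cell types moved with day in the same counts. Of 8 neutrophil markers 5 fell, of 9 macrophage markers 6 rose, of 12 columnar markers 2 rose and of 8 fibroblast markers 3 fell. Fewer were called within the libraries with no batch label. There 1 of 7 neutrophil markers fell, 4 of 8 macrophage and 2 of 11 columnar markers rose, and 0 of 7 fibroblast markers were called. The summed neutrophil markers lay between 783 (day 23) and 6509 CPM (day 9) in the 7 DSS libraries, against 6.41 in the uninjured one, and the macrophage markers between 85.3 (day 18) and 1466 (day 23), against 147 in uninjured. Their part in the trends of other genes was not tested. Without the 35 plasma cells that carried markers of other types, 130 genes were called, 114 of them among the 139.

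Among the risers chosen by the rule for named genes, which are at least as high in plasma cells as in other cells, the steepest was Rnase2b, a ribonuclease of the eosinophil-associated family (chromosome 14, 51162260 to 51163018, plus strand, mm10). Its level was 0 CPM in the uninjured library, then 11.6, 0 and 33.8 on days 6, 9 and 12 and 97.8, 134, 123 and 190 CPM on days 16, 18, 19 and 23, and 48.6 in Il10-/-. Every library from day 16 on lay above every earlier one. The slope was 2.41 log2 units per 10 days (SE 0.29, edgeR adjusted p = 2.62e-13, and 0.00132 within the libraries with no batch label). It also passed with no batch term (edgeR adjusted p = 0.0321), but missed without day 6 (0.0683) and with all 9 DSS libraries (0.0905). The levels rest on 1, 0 and 12 UMIs on days 6, 9 and 12, against 136, 307, 168 and 206 on days 16, 18, 19 and 23. Most counts that took the gene past the filter on low counts thus came from the libraries where it is high. The test is therefore not separate support for the rise. All other cells together had 0.222 CPM. The transcripts were carried by a part of the cells, 43 of 250 on day 16, 63 of 244 on day 18, 44 of 365 on day 19 and 34 of 203 on day 23, against 1 of 35 on day 6 and 7 of 65 on day 12. The family has near-identical copies, so counts may be shared among them.

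Of the 14 tested survival genes Tnfrsf17 alone was called, and of the 14 tested homing genes Itgb7 alone. Tnfrsf17 had 538 CPM in uninjured, 268, 162, 284, 372, 673, 348 and 532 CPM on days 6, 9, 12, 16, 18, 19 and 23, and 352 in Il10-/-. Days 6 to 12 lay below days 16 to 23, with a slope of 0.91 log2 units per 10 days (SE 0.22, edgeR adjusted p = 0.00549). Itgb7, the beta 7 integrin subunit of gut homing, had 205 CPM in uninjured, 34.9, 55.6, 84.4, 94.95, 215, 109 and 161 CPM over the same days, and 128 in Il10-/-. Its slope was 1.11 (SE 0.25, edgeR adjusted p = 0.00200). On day 6 a single UMI stands for 11.6 CPM, so few UMIs stand behind the Itgb7 value there. For both genes the uninjured level was near the top of the DSS range and the early days at its bottom. Both passed within the libraries with no batch label (0.0386 and 0.0171), and both were lost without day 23 (0.438 and 0.312). Tnfrsf17 was also lost without day 9 (0.124).

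Glmp, a lysosomal membrane protein, went the same way, with 173 CPM in uninjured, 81.5, 60.7, 98.5, 126, 171, 131 and 232 CPM from day 6 to day 23, and a slope of 1.17 (SE 0.24, edgeR adjusted p = 0.000203). Gpnmb, a membrane glycoprotein, had 0 CPM on day 6 and 67.2 on day 23, with a slope of 1.64 (SE 0.37, edgeR adjusted p = 0.00153). A single UMI on day 6 stands for 11.6 CPM, so the 0 of Gpnmb there does not show absence. Glmp and Gpnmb were both lost without day 23 (0.429 and 0.798). Ccs, Asns, Cyth2, H1f0 and Ypel3, also chosen by the rule for named genes, passed in the full fit at slopes of 1.08 to 1.31 and missed within the libraries with no batch label (edgeR adjusted p 0.0741 to 0.303). Asns, the asparagine synthetase, was the only 1 of 15 tested genes of the PERK and amino acid response list to be called.

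Of 6 fallers chosen by the rule, Top2a and Odc1 also passed within the libraries with no batch label. Top2a, the topoisomerase of cycling cells, had 44.9 CPM in uninjured, 151, 182 and 197 CPM on days 6, 9 and 12, 99.99, 49.0 and 101 on days 16, 18 and 19, 31.3 on day 23, and 83.6 in Il10-/-. The 3 early DSS days lay above all later ones. The slope was -1.23 (SE 0.24, edgeR adjusted p = 7.44e-05, and 0.0361 with no batch label), lost without day 23 (0.677). Odc1, the ornithine decarboxylase of polyamine synthesis, stood at 256 CPM in uninjured and at 908, 541 and 332 CPM on days 6, 9 and 12, against 244 to 316 on the later days. Its slope was -0.71 (SE 0.19, edgeR adjusted p = 0.0242), and the call was lost without day 6, 9, 16 or 19 (0.0617 to 0.298). Topbp1, Lig1, Hist1h2ap and Cdca3, all of DNA replication or division, fell in the full fit (Topbp1 by 1.60, Lig1 by 1.24 and Hist1h2ap by 1.19 on the log2 scale) and missed within the libraries with no batch label (0.0928 to 0.538).

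With no batch term every gene given a slope above missed, apart from Rnase2b, and DESeq2 lost Gpnmb, Top2a and Odc1 (adjusted p = 0.184, 0.0513 and 0.161).

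**Figure D3:**
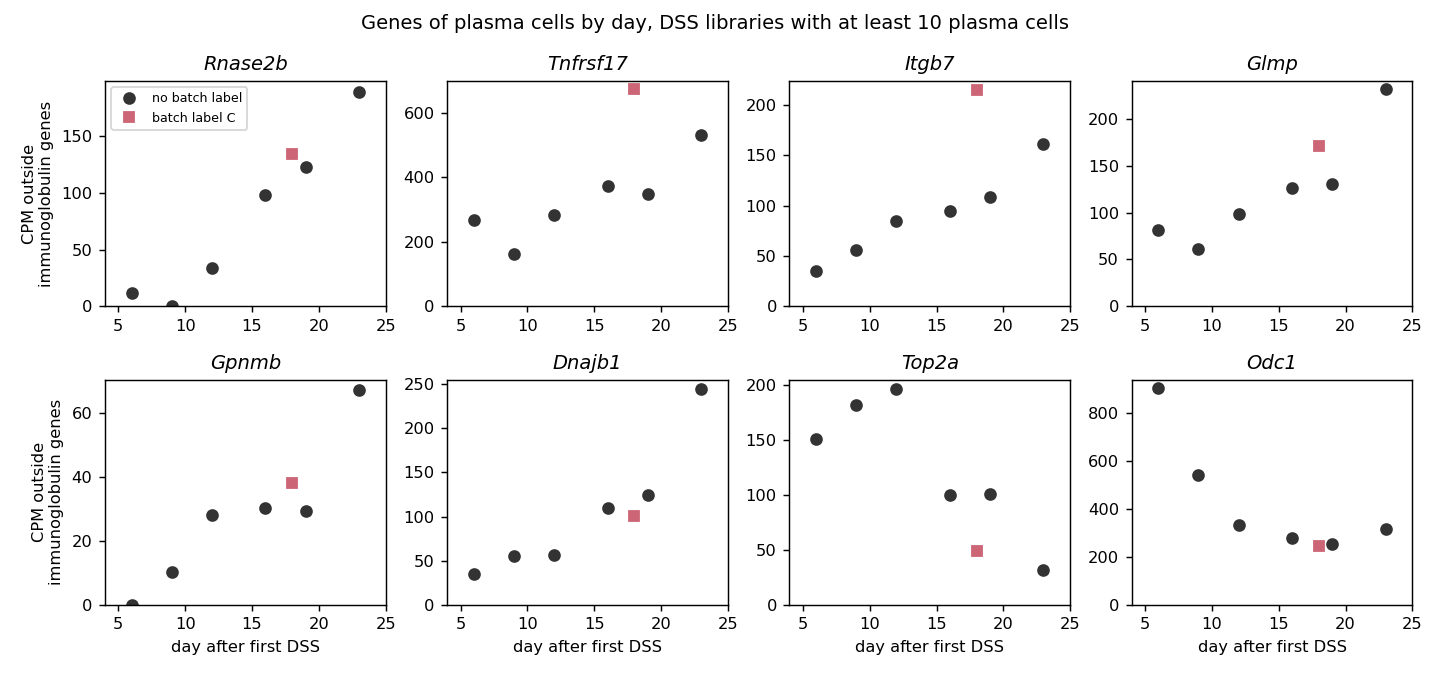
Level (CPM outside immunoglobulin genes, y axis from 0) of 8 genes in plasma cells against day after first DSS (x axis), 1 point per library with at least 10 plasma cells, with squares for batch label C. Rnase2b, Tnfrsf17, Itgb7, Glmp, Gpnmb and Dnajb1 are highest on day 23 or 18, and Top2a and Odc1 on the early days.

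By lists, most of the plasma cell programme showed no call. The median slope over all 9474 genes was 0.08. Of 18 proliferation genes 0 rose and 2 fell, Top2a and Stmn1, all 18 slopes were negative and their median was -0.48. The fall was not steady. The list summed to 1059, 2074 and 1966 CPM on days 6, 9 and 12, then 1284, 827, 1425 and 756 on days 16, 18, 19 and 23. Day 6 thus lay below days 16 and 19, and the uninjured library had 782 CPM. Of 31 tested genes of the unfolded protein response and secretion 0 were called, with a median of 0.33 and 27 positive slopes. Xbp1 itself had 2421, 2084 and 2524 CPM on days 6, 9 and 12 and 2994 to 4222 on days 16 to 23, with a slope of 0.68 (SE 0.28, edgeR adjusted p = 0.263). Of 14 plasma identity genes Tnfrsf17 alone was called, with a median of 0.51. Prdm1, the master repressor of the B cell programme, had a slope of -0.06 (SE 0.22) and Ccr10 one of 0.57 (SE 0.23, edgeR adjusted p = 0.241).

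The homing list had a median slope of 0.34 and the survival list of 0.14. Of 12 NF-kB targets none were called (median -0.43), of 8 MHC class II genes none (0.27) and of 16 oxidative phosphorylation genes none (0.14). Of 18 genes of the immediate early and dissociation stress list, Dnajb1 and Jun rose and Ier3 and Nr4a1 fell. Dnajb1, a heat shock co-chaperone that the other cells hold at a higher level, had 109 CPM in uninjured and 34.9, 55.6, 56.3, 110.1, 101, 124 and 245 from day 6 to day 23. Its slope was 1.71 (SE 0.25, edgeR adjusted p = 1.02e-08), and it passed without each library in turn and with no batch term, though not with all 9 DSS libraries (0.0674). Of 16 interferon-stimulated genes Ifit3 and Ly6c2 were called as risers. Ifit3 was at 6.41 CPM in uninjured, at 0 on days 6, 9 and 12 and at 12.9 on day 23. It passed the filter on low counts through the later libraries alone. Days 6 and 23 held 85911 and 1086947 UMIs outside immunoglobulin genes, and a single UMI on day 6 stands for 11.6 CPM. The call of Ifit3 therefore does not show a rise, and few UMIs stand behind the day 6 value of Dnajb1. Ly6c2, a surface protein highly expressed in plasma cells, had 3750 CPM in uninjured, 1839, 2114 and 1649 CPM on days 6, 9 and 12 and 2570 to 5447 later (slope 1.06, SE 0.28, edgeR adjusted p = 0.0175, and 0.0887 with no batch label).

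Dividing plasma cells were counted by UMIs of both Mki67 and Top2a. There were 1 of 37 in uninjured, 1 of 35 on day 6, 0 of 5 on day 7, 4 of 24 on day 9 (16.7%), 6 of 8 on day 11 (75.0%, 34.9% to 96.8%) and 11 of 65 on day 12 (16.9%, 8.76% to 28.3%). Then the share was 8.00%, 9.02%, 6.03% and 2.96% on days 16, 18, 19 and 23, and 5.17% in Il10-/- (12 of 232). The interval of day 11 lay above that of every other library but days 7 and 9. Its 8 cells were also the deepest, and they held 21610 CPM of neutrophil markers, above every other library, whose part in the count was not tested. A wider criterion, at least 1 UMI of either gene after thinning each cell to 1000 UMIs, was met by 6.25% of cells in uninjured, 7.41% on day 6, 0 of 5 on day 7, 12.5% on day 9, 5 of 8 on day 11 and 8.33% on day 12. Days 16, 18, 19 and 23 had 6.90%, 6.61%, 7.48% and 3.31% by it, and Il10-/- had 4.41%. In T cells the share with both genes was 4.59%.

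IgG and IgA plasma cells were then compared within the same library. Classes rest on heavy chain constant genes alone, so genes outside the immunoglobulin loci do not enter the rule. Whether depth or free Igha RNA shifts which cells are classed, and so the levels of other genes, was not tested. The planned fit needs at least 10 cells of each class, which only days 18 (12 IgG and 231 IgA cells) and 19 (26 and 290) reach, and it has a single residual degree of freedom. There 15 of 6005 genes were higher in IgG cells (0.25%) and 25 lower (0.416%), 0.666% in all and 9 and 19 outside immunoglobulin genes, at an edgeR adjusted p under 0.05 with the library as a block. With at least 5 cells, chosen after the data were seen, days 16, 18, 19 and 23 and Il10-/- enter, and 30 of 6523 genes were higher (0.46%) and 97 lower (1.49%), 1.95% in all, 28 of them among the 40. The median over all genes was -0.07 in the first fit and -0.20 in the second. Values below are for days 16, 18, 19, 23 and Il10-/- in that order.

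Ccr10 and Tnfrsf17 were lower in IgG cells. On days 18 and 19 Ccr10 was the only 1 of 9 tested homing genes to be called, and Tnfrsf17 the only 1 of 12 survival genes. In the 5 libraries 3 of 11 homing genes were lower in IgG (Ccr10, Selplg and Klf2) and 1 higher, the chemokine receptor Cxcr3 (2.88, SE 0.85, edgeR adjusted p = 0.0410), and 4 of 13 survival genes were lower (Tnfrsf17, Tnfrsf13b, Cd28 and Cd93). Cxcr3 had only 3.89 CPM over all plasma cells and missed the filter on low counts on days 18 and 19, so few UMIs stand behind its call. Ccr10 had 145, 399, 143, 327 and 160 CPM in IgG cells, against 571, 922, 579, 783 and 663 CPM in IgA cells, lower in all 5 libraries. Its log2 difference was -1.60 (SE 0.23, edgeR adjusted p = 0.00795) on days 18 and 19 and -1.84 (SE 0.25, adjusted p = 6.17e-11) in the 5 libraries. Tnfrsf17 had 62.2, 381, 83.0, 140 and 17.7 CPM in IgG cells and 387, 692, 392, 547 and 385 in IgA cells. Its difference was -1.43 (SE 0.28, edgeR adjusted p = 0.0459) and -2.07 in the 5 libraries (SE 0.27, 1.89e-11). For Tnfrsf17 the highest IgG value, 381 CPM on day 18, lay just under the lowest IgA value, 385 in Il10-/-. In IgG cells 3 counts stand for 62.2 CPM on day 16, 140 on day 23 and 53.2 in Il10-/-. At most 3 UMIs thus stand behind Tnfrsf17 in the IgG cells of each of these. Cd28, a costimulatory receptor of long-lived plasma cells, and Klf2, a factor of lymphocyte trafficking, missed in the first fit (edgeR adjusted p = 0.0817 and 0.105) and were called lower in the second at -1.40 and -1.45 (0.000122 and 4.95e-05).

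Parts of the secretory machinery split. Txndc5, a disulfide isomerase of the endoplasmic reticulum, had 808, 1506, 778, 794 and 337 CPM in IgG cells, against 2628, 2526, 2472, 2890 and 2731 in IgA cells. The difference was -1.25 (SE 0.23, edgeR adjusted p = 0.0363) and -1.91 in the 5 libraries (SE 0.22, 2.25e-14). Hspa5, the chaperone BiP, had 2341, 6146, 3692, 4014 and 2782 CPM in IgG cells and 2080, 2411, 1838, 2178 and 2151 in IgA cells, higher in IgG in each. It was called on days 18 and 19 (1.13, SE 0.20, edgeR adjusted p = 0.0300) and not in the 5 libraries (0.57, SE 0.21, 0.196). Creld2, also of the endoplasmic reticulum, was called on days 18 and 19 (1.18, edgeR adjusted p = 0.0180) and not in the 5 libraries (0.33, 0.697). Of 31 tested genes of the unfolded protein response and secretion, these 2 were called in the first fit and 0 in the second. Xbp1 did not pass in either (-0.13, SE 0.20, and -0.30, SE 0.21, edgeR adjusted p = 0.950 and 0.724).

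Jchain took 19344, 37295, 23152, 19731 and 38273 CPM of all UMIs in IgG cells, against 65997, 62641, 63557, 78943 and 68645 in IgA cells, lower in IgG in each. Its log2 difference was -1.26 (SE 0.26, edgeR adjusted p = 0.0602) on days 18 and 19, which missed, and -1.62 in the 5 libraries (SE 0.25, 7.00e-08). Igkc did not pass (-0.11, SE 0.26, and -0.07, SE 0.26, edgeR adjusted p = 0.975 and 0.969).

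Rnase2b, which rose over the DSS course, was detected in IgA cells and in 0 IgG cells. It had 0 counts in the IgG cells of all 5 libraries, against 104, 142, 143, 196 and 53.4 CPM in IgA cells. It had a UMI in 0 of 61 IgG cells (3 counts would be 4.92%, a limit on cells with a UMI and not on cells that express the gene), and in 204 of 1281 IgA cells (15.9%), with median depths of 13129 and 14017 UMIs. With 3 counts set for IgG in each library, its level was at least 5.36-fold lower in IgG cells on day 18 and at least 6.30-fold lower on day 19. The gene passed the filter on low counts through IgA cells alone, so its test is not given. At the depth of days 16 and 23 and Il10-/- the same bound was 1.67, 1.40 and 1.005. The 2 Tmem176 genes, neighbouring membrane protein genes, were lower together. Tmem176b had 746, 514, 226, 934 and 532 CPM in IgG and 925, 1794, 830, 1393 and 1452 in IgA cells (-1.89, SE 0.21, edgeR adjusted p = 0.00136, and -1.41, SE 0.22, 1.17e-07), and Tmem176a differed by -1.43 (SE 0.20, 0.00713).

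Cd69, an activation and tissue retention marker, had 82.9, 257, 90.6, 233 and 195 CPM in IgG and 349, 497, 348, 538 and 397 in IgA cells (-1.41, SE 0.27, edgeR adjusted p = 0.0426, and -1.54, 8.19e-07). Ube2c, of mitosis, had 0, 0, 1, 0 and 0 counts in IgG cells, against 55.8, 48.2, 109, 84.7 and 65.1 CPM in IgA cells. With 3 counts set for IgG its level was at least 1.81-fold lower in IgG on day 18 and 1.23-fold in Il10-/-, while on days 16 and 23 the IgA level was under that of 3 IgG counts, so a lower level could not be shown at that depth. In the 5 libraries 5 of 16 tested proliferation genes were lower in IgG (Ube2c, Birc5, Stmn1, Tubb5 and Hmgb2, median -1.28 over all 16), Ube2c having passed the filter through IgA cells. Pim1, a survival kinase, was -0.99 (SE 0.20, edgeR adjusted p = 0.0463) and -0.78 (0.0285), and it missed in the larger cluster (0.202).

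Higher in IgG cells were Oosp1, Ccnd2, Cd24a and Pon3. Oosp1 had 435, 204, 211, 187 and 319 CPM in IgG cells, against 46.7, 32.9, 50.1, 65.6 and 89.7 in IgA cells, higher in IgG in each. The difference was 2.30 (SE 0.33, edgeR adjusted p = 0.00713) and 2.17 in the 5 libraries (SE 0.27, 6.16e-13). Ccnd2, the G1 cyclin D2, had 932, 602, 627, 607 and 585 CPM in IgG and 248, 254, 286, 352 and 365 in IgA cells (1.14, SE 0.20, edgeR adjusted p = 0.0288, and 1.002, SE 0.22, 0.000689). Cd24a, a surface glycoprotein, differed by 1.08 (SE 0.21, edgeR adjusted p = 0.0426) and Pon3, a lactonase, by 1.48 (SE 0.26, 0.0282), both higher in IgG in all 5 libraries. In the 5-library fit Cd24a and Pon3 were lost without day 19 (edgeR adjusted p = 0.117 and 0.303) and Ccnd2 without day 16 (0.0731). Ly6k and Ly6a, surface proteins, were called higher on days 18 and 19, and missed in the 5-library fit at 0.87 and 0.24 (edgeR adjusted p = 0.761 and 0.897). DESeq2 on days 18 and 19 lost Tnfrsf17, Cd69, Pon3, Ccnd2, Cd24a and Pim1 (adjusted p 0.0540 to 0.301) and gave no adjusted p for Rnase2b and Ube2c, and with no library block the calls of the genes named here were lost.

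**Figure D4:**
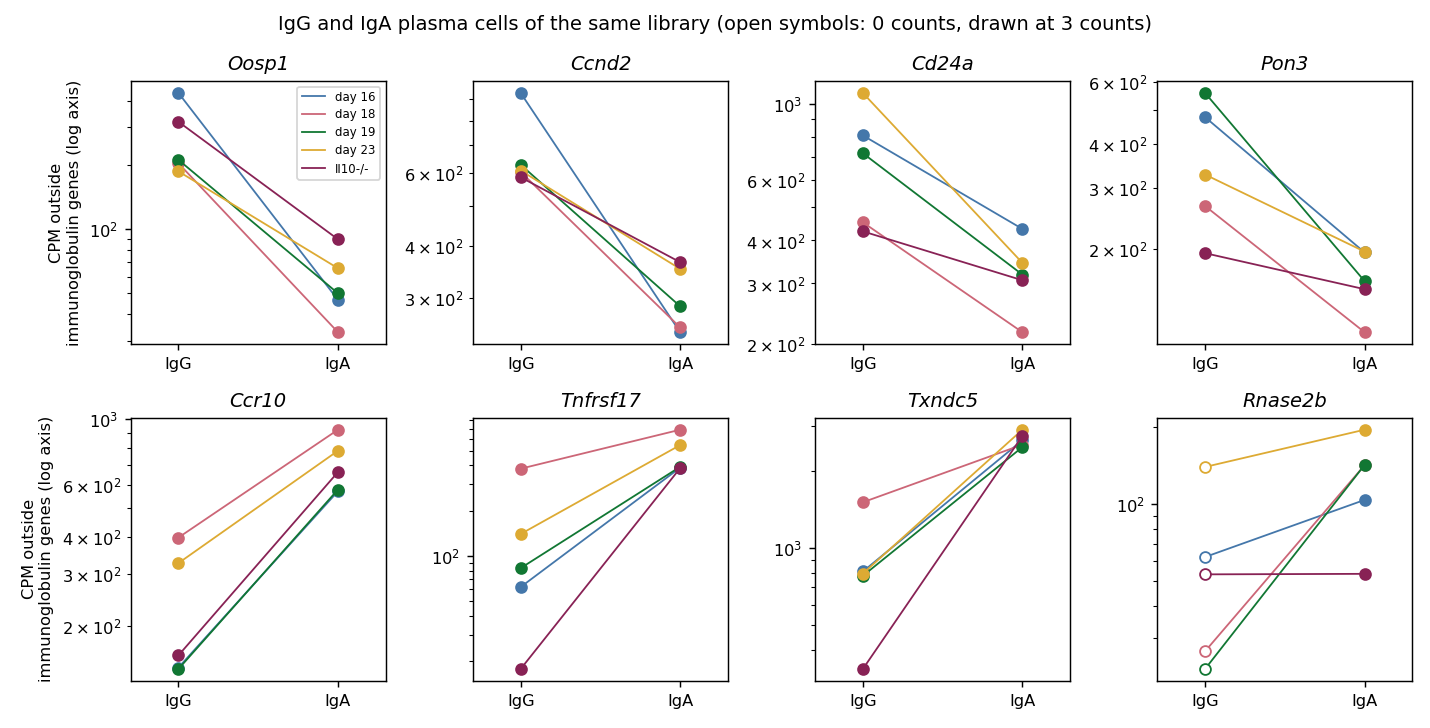
Level (CPM outside immunoglobulin genes, log axis) of 8 genes in IgG and IgA plasma cells, 1 line per library with at least 5 IgG cells. Oosp1, Ccnd2, Cd24a and Pon3 slope down towards IgA, and Ccr10, Tnfrsf17 and Txndc5 slope up in all 5 libraries, while Rnase2b has 0 counts in every IgG group (open symbols, drawn at 3 counts).

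Markers of other cells differed between the classes as well. On days 18 and 19, 1 of 5 tested neutrophil markers (Retnlg), 1 of 4 macrophage markers (Lyz2) and 2 of 6 MHC class II genes (H2-Aa and H2-Eb1) were lower in IgG cells. In the 5 libraries 3 of 7 macrophage markers were lower (Lyz2, C1qa and C1qc) and 0 of 7 neutrophil markers were called. Retnlg on days 18 and 19 (-9.15) and C1qc in the 5 libraries (-7.24) had estimates that leave IgG levels near 0. They passed the filter on low counts through IgA cells, so a lower level in IgG cells is not shown by their calls. Fibroblast markers leaned the other way, with positive differences for all 7 tested in both fits (medians 1.02 and 0.70), of which 0 were called on days 18 and 19 and Mgp in the 5 libraries (1.59, SE 0.47, edgeR adjusted p = 0.0446). Of 7 B cell genes tested in the 5 libraries Ms4a1 was called higher in IgG (3.31, SE 0.47, edgeR adjusted p = 1.70e-09). Ms4a1 had only 10.6 CPM over all plasma cells and missed the filter on low counts on days 18 and 19. The part of such markers in the other differences was not tested. In the larger cluster alone, where 4 libraries (day 23 not among them) reach 5 cells of each class, 41 of 5770 genes were higher in IgG cells (0.711%) and 83 lower (1.44%), 2.15% in all, and Ccr10, Tnfrsf17, Txndc5, Tmem176b, Cd69, Oosp1, Ccnd2, Cd24a, Pon3, Hspa5 and Creld2 all passed.

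The Il10-/- library was set against the range of the 7 DSS libraries, as a description of single libraries. Of 9456 genes, 43 lay above the range and at least 2-fold over the DSS middle (0.455%), and 209 below it and at least 2-fold under (2.21%). The middle is geometric, with counts under 3 set to 3, which lifts it where libraries are shallow. For genes with few counts this eases a place below and hinders one above, so the 2 numbers are not comparable. Xist, the RNA of the inactive X chromosome, had 101 CPM in Il10-/- plasma cells (104 UMIs in 19 of 232 cells), against 0 to 2.20 in DSS libraries. Its DSS middle by this rule was 4.99. Cox4i2, a subunit of cytochrome oxidase, had 74.8 CPM in 18 cells, against 0 to 25.3. Reg3g, an antimicrobial lectin of epithelium, had 45.7 CPM in 42 cells with at most 3 UMIs in 1 cell, against 0 to 11.6. Fgfbp3, with 50.5 CPM against 4.40 to 23.3, and Serpina3f, with 135 against 11.4 to 131, were also above. The genes farthest below had few counts, such as Slc7a11, the cystine transporter, with 5 counts at 4.86 CPM against 6.44 to 69.8. The age of the mice, their genotype and their sex, which is not given in the sources used here, cannot be told apart.

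In the uninjured library, by the same rule, 848 of 9453 genes lay above the DSS range and at least 2-fold over its middle (8.97%) and 177 below (1.87%), from 37 cells. Neutrophil transcripts were almost absent from uninjured plasma cells. S100a8 had 281 to 3238 CPM in DSS libraries and 0 counts in the uninjured one, Il1b had 256 to 838 CPM in DSS libraries and 0 counts in uninjured, and S100a9 had 184 to 2230 CPM and 1 count. Several high genes came from 1 cell, such as Guca2a, the epithelial peptide guanylin, with 156 of its 191 UMIs, and Ces2a with 22 of 25. Fgfbp3 was again above the range with 128 CPM from 6 cells, 11 of its 20 UMIs in 1 of them. The MHC class II list summed to 11619.6 CPM in Il10-/- plasma cells and 6175 to 13835 in the 7 DSS libraries, against 19158 in the uninjured library. The DSS libraries of days 7 and 11, with 5 and 8 plasma cells, had 19594 and 3892 CPM, so day 7 reached the uninjured level. Sdc1, the plasma cell syndecan CD138, had 546 CPM in Il10-/- and 324 to 501 in DSS libraries, against 968 in uninjured.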

How the data were processed

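Values in the deposited matrix are raw UMI counts of each gene in each cell, made by the authors with Cell Ranger 3.0.0 against mm10, per the submitters' processing notes. Cell types, plasma clusters, batch, storage and pooled mice came from the authors' deposited cell table, which gives 3 mice per library for batch C and 8 for the others. The filters the authors put on cells are not given in the sources used here. Of the matrix, 3 libraries (12621 cells, 12 of them plasma cells) matched no sample and were not analysed here. Gene rows that carry a placeholder (597 of 30406, 0.517% of counts) stayed out of tests. No doublet caller was run, and plasma cells with at least 2 markers of 1 other cell type that took over 1% of their UMIs were left out in an alternative.

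The members, gene lists and tests were chosen with earlier results of these data known. Counts were summed per library, or per library and class, and tested with edgeR 4.0.16 (R 4.3.3, robust quasi-likelihood, TMM, filterByExpr, Benjamini-Hochberg), with DESeq2 1.42.0 as an alternative. The rule for named genes took up to 10 genes per direction among those called with a mean of at least 20 CPM and a level in plasma cells at least that of other cells, plus up to 4 members of each list with the largest change. Further list members were named after their values were seen. Immunoglobulin genes were not named from tests. Single libraries used genes with at least 20 counts. Groups have 1 library each, so p-values of trends measure the spread between libraries, and shares carry exact Clopper-Pearson 95% intervals. Summed plasma cell UMIs per library (186456 to 5933421) set the precision. An IgM comparison was not run, since 0 libraries had 10 IgM cells. The steps were tested on simulated data. One gene that the rule for named genes chose is not reported here.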

Additional observations from a re-analysis of the deposited data

How the results depend on the processing

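The count of genes with a day trend was 139 and moved most with the batch term and the libraries used. It was 43 with DESeq2 (33 shared), 47 within the libraries with no batch label, 7 with no batch term and 6 with all 9 DSS libraries, and 47 to 113 with each library left out in turn (47 without day 18, 57 without day 23, 90 without day 19). IgA cells alone gave 135, the larger cluster 130, no filter on low counts 127 and library sizes outside immunoglobulin genes 138. The IgG against IgA count was 40, with 21 under DESeq2 (17 shared), 123 with no filter on low counts, 109 with the 90% class rule, 3 with no library block, 127 with at least 5 cells per class (28 shared), 124 for these in the larger cluster, and 71, 77, 82, 102 and 139 without day 19, day 16, day 18, Il10-/- or day 23 of these 5. Leaving a library out of days 18 and 19 gave no residual degree of freedom and was not run, and only day 19 has 20 cells of each class. No paired analysis was possible because each labelled group has 1 library, except that IgG and IgA cells were paired by library through the block. Over the single genes named or called, day trend calls kept their side of the threshold in 688 gene and setting pairs, were lost in 262 and gained in 4, and those of IgG against IgA in 367, 85 and 32, while 4 turned direction, all in the 5-library fit. They were Ly6k without day 19 (-0.27), Ly6a without day 18 (-0.14) and Retnlg without day 18 (1.02) or day 19 (0.30). The day trend pairs are not all separate checks. The setting with at least 20 plasma cells per library held the same libraries as the main fit and could not differ. Leaving out day 18 and using only libraries with no batch label were the same fit, counted under both names.

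With a library left out in turn, the correlation with day ranged from -0.883 (without day 23, exact permutation p = 0.025) to -0.427 for the IgA share, from 0.527 to 0.900 for the IgG share, from -0.0162 (without day 6) to 0.251 for the IgM share, and from -0.251 to 0.242 (without day 12) for the lambda share. It ranged from 0.355 to 0.837 for the plasma share of the B lineage and from 0.612 to 0.940 for the antibody share of UMIs (0.789 without day 12, exact permutation p = 0.0486). Class rules, UMI minimums and thinning to 1000 UMIs kept the direction of the IgA and IgG relations, and none passed. The cause of these shifts was not tested. Depth limits the early days, where 60 classed cells allow an IgG share of up to 5.96%, and the IgG groups, which hold 21424 (day 23) to 132462 (day 19) UMIs outside immunoglobulin genes.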
